A study of Rattus norvegicus with 2 samples.

Results

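Enteroendocrine cells (EECs) are the hormone-secreting cells scattered through the intestinal epithelium. In droplet single-cell RNA-seq of the rat proximal jejunum they were chosen here from the transcripts of each cell barcode, with barcodes of low depth kept. A barcode was taken as an EEC when it held over 1000 unique molecular identifiers (UMIs, each counting 1 captured transcript), at most 40% of its UMIs in mitochondrial genes, at least 3 UMIs of the granule proteins Chga and Chgb together, and a UMI of at least 2 of 8 companion genes (Cpe, Resp18, Neurod1, Sct, Tph1, Tac1, Cck and Gip). The choice gave 41 of 12033 barcodes in rat 1 and 14 of 8252 barcodes in rat 2, or 55 of 20285 in all. They were compared with the 11309 other barcodes that met the same depth and mitochondrial limits and held a UMI of Epcam, a surface protein of epithelial cells.

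The study sequenced the epithelium of 2 Sprague Dawley rats, with 1 library per rat and 1 condition. Both were adult males of 6 to 8 weeks and 180 to 200 g, fasted overnight before the tissue was taken, with no transgene or treatment named in the labels. The epithelium was loosened with EDTA, dispersed with dispase II and passed through a strainer before 3′ droplet capture, with no sort for any cell type. Each rat is 1 replicate, and cells of 1 rat were never treated as replicates.

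EECs arise from secretory progenitors under Neurod1 and related transcription factors, and store peptide hormones in dense-core granules that are built around chromogranins and secretogranins. Prohormone convertases and amidating enzymes mature the peptides, and a rise in calcium releases them through a synaptic type of exocytosis when nutrients or neighbouring hormones are sensed. Enterochromaffin cells, the serotonin-producing EECs, make their amine with Tph1 and Ddc and load it into granules with Slc18a1. Other EECs are commonly named by their peptides, such as neurotensin (Nts), somatostatin (Sst), glucose-dependent insulinotropic peptide (Gip), cholecystokinin (Cck), glucagon-family peptides (Gcg) and secretin (Sct).

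EECs were 0.497% of the epithelial barcodes in rat 1 and 0.448% in rat 2. The exact 95% intervals (Clopper-Pearson), 0.357 to 0.674 and 0.245 to 0.751, overlapped, and like all intervals here they cover counting error only. Their median depth was 5682 UMIs in rat 1 (1013 to 32184) and 11458.5 UMIs in rat 2 (3147 to 25172), against 10656 and 7532.5 UMIs in the other epithelial barcodes. The low-depth barcodes, with at most 5000 UMIs, numbered 16 in rat 1 and 2 in rat 2. The median mitochondrial share was 5.60% and 8.15% in EECs and 12.2% and 18.3% in the other epithelial barcodes. Summed over barcodes, the EECs held 317732 UMIs in rat 1 and 171491 in rat 2, so that 1 UMI stood for 3.15 and 5.83 CPM (UMIs scaled to a total of 1000000). No EEC barcode was shared by the libraries, which had 28 barcodes in common.

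The libraries differed in other ways than replicate number, and these values stand beside every difference between the rats. The deposited matrices name different software versions, 3.1.0 for rat 1 and 5.0.1 for rat 2. In the other epithelial barcodes Fabp6, the ileal bile acid binding protein, stood at 794 CPM (rat 1) and 0.453 CPM (rat 2), and Onecut2, a proximal transcription factor, was at 0.229 and 38.5 CPM. Genes read beside them were closer: Slc10a2 at 0.882 and 0.327 CPM, Lct at 727 and 1109 CPM, and Gata4 at 38.9 and 50.4 CPM. Fabp1 was at 28639 and 17766 CPM and Ces1d at 2.35 and 2.62 CPM. All of these regional genes were chosen after the hormones were seen to differ. The animal, the sampled position and the library cannot be told apart, so no difference between the rats was tested.

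The genes that chose the barcodes describe them and are given with no test. The EEC sums held Chga at 9675 CPM (rat 1) and 18310 CPM (rat 2), where the other epithelial barcodes held 1.19 and 1.21 CPM. Chgb was at 9590 and 31424 CPM against 2.30 and 2.74 CPM. Chga UMIs were present in every EEC and in 1.24% and 1.51% of the other epithelial barcodes. Among the markers of the cell type, Cpe, the carboxypeptidase that trims prohormones, was found in 39 of 41 and 13 of 14 EECs. Resp18, a granule protein, was found in 40 and 13, and the transcription factor Neurod1 in 33 and 12. All 5 markers of the label were therefore present in both rats.

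The chromogranin count of EECs ran from 4 to 1043 UMIs in rat 1 (median 29) and from 41 to 1537 UMIs in rat 2 (median 457). Only 4 barcodes lay near the chromogranin limit of 3, all in rat 1, with 4, 5, 5 and 6 chromogranin UMIs and 3 or 4 companion genes. At the companion limit of 2 genes lay 1 EEC of rat 2, with 41 chromogranin UMIs. It held 1 UMI each of Sct and Cck, and none of Cpe, Resp18 or Neurod1. Sct and Cck were found in 22.9% and 16.6% of the other epithelial barcodes of rat 2. This EEC also held 190 UMIs of the T cell chemokine Ccl5, so its name rests on the chromogranins. Just outside lay 3 barcodes with 3 chromogranin UMIs and 0 or 1 companion gene, 1 with 18 chromogranin UMIs and 1 companion gene, and 2 with 2 chromogranin UMIs and 3 or 4 companion genes. Of the 16 shallow EECs of rat 1, Cpe was found in 15, Resp18 in 16 and Neurod1 in 12, which the choice itself favours.

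Transcripts of other cell types were found in EECs at levels that differed by type. Across the 20 enterocyte markers the EEC sums were at 5958 and 6805 CPM, against 81538 and 80934 CPM in the other epithelial barcodes. Goblet markers summed to 9165 and 14689 CPM in EECs against 7632 and 19387 CPM, with a median over barcodes of 3220 and 4099 CPM against 528 and 389 CPM. Paneth markers were at 1171 and 1015 CPM against 1716 and 299 CPM, and stem markers at 589 and 17.5 CPM against 375 and 49.6 CPM, so neither list was lower in EECs of both rats. Goblet markers reached at most 4.80% of the UMIs of an EEC in rat 1 and 4.86% in rat 2, and 4 EECs (2 per rat) also passed the goblet gate used below. Immune markers reached 1.21% in 1 EEC of rat 1 and 5.65% in 1 EEC of rat 2, and stayed under 1% in all others. Tuft markers never exceeded 0.0164% of an EEC. The part of these transcripts in the results below was not tested, other than by leaving out the EECs that passed the goblet gate or held the immune markers.

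Hormone transcripts took 25.3% of all EEC UMIs in rat 1 and 19.7% in rat 2. A leading hormone was assigned to an EEC as the most abundant of 11 hormone genes, where it had at least 10 UMIs. In rat 1 the leading gene was Nts in 16 EECs, Sst in 7, Tac1 (substance P) in 5, Gip in 4, Sct in 3 and Gcg in 2, and 4 had none. In rat 2 it was Cartpt (CART prepropeptide) in 5 EECs, Cck, Gip and Sct in 2 each, and Sst and Tac1 in 1 each, and 1 had none. Nts therefore led in 39.0% of the EECs of rat 1 (exact interval 24.2 to 55.5) and in no EEC of rat 2, where a count of 0 in 14 is a small sample.

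**Figure D1:**
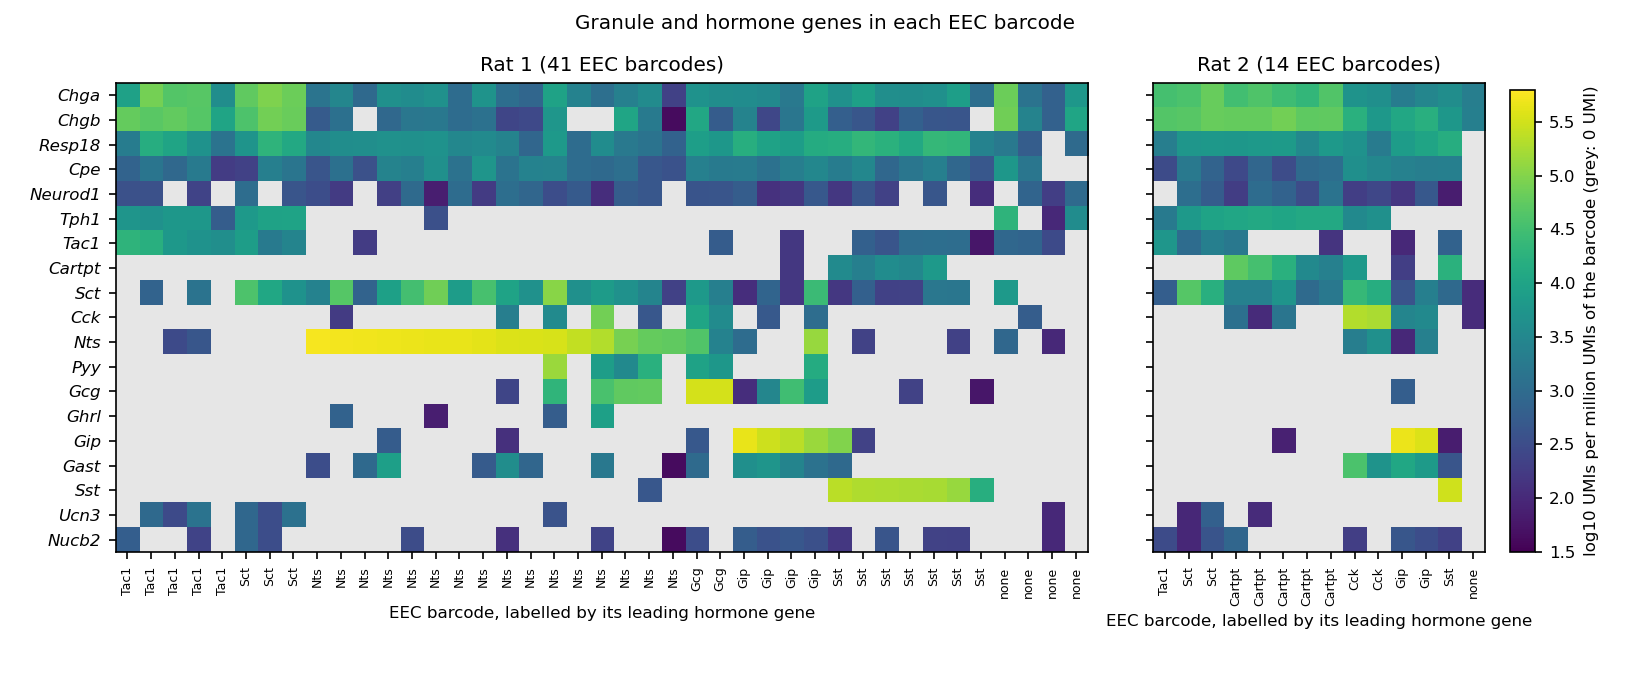
Level of 19 granule, hormone and amine genes in each of the 55 EEC barcodes, as log10 CPM within the barcode, with a column per barcode labelled by its leading hormone gene and grey for 0 UMI. The 16 Nts-led barcodes all lie in rat 1, Tph1 and Sst do not share a barcode at 10 UMIs or more, and Cartpt at 10 UMIs or more lies in Sst-led barcodes of both rats and, in rat 2, also in 6 barcodes with Tph1.

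Single barcodes carried a large part of some hormone sums. In rat 1 the Sst sum of 17981 CPM came from 7 EECs with at least 10 UMIs, and in rat 2 the sum of 25150 CPM came from 1 EEC with 4313 UMIs. Gip was at 30321 and 95667 CPM, from 5 and 2 EECs with at least 10 UMIs. Cck was at 2870 and 46626 CPM, from 5 and 6 such EECs. In Gip-led EECs, Gip alone made up 14.2% to 45.9% of the UMIs in rat 1 and 37.0% to 47.7% in rat 2. Nts made up between 5.67% and 54.5% of the UMIs of the Nts-led EECs.

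Several hormone sums differed widely between the rats. The sum of Nts was 152928 CPM in the first animal and 997 CPM in the second, that of Gcg 23671 and 69.97 CPM, and that of Pyy (peptide YY) 7931 CPM and 0. Of the 2520 Pyy UMIs, 84.8% lay in 1 EEC. Ghrl (ghrelin) had 89 UMIs in rat 1, of which 84.3% lay in 1 EEC, and none in rat 2. Cartpt went the other way, with 296 CPM (rat 1) and 9132 CPM (rat 2). These are values of 1 animal each.

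Most EECs held more than 1 hormone. At least 2 hormone genes with 10 or more UMIs each were found in 27 of 41 EECs of rat 1 and 11 of 14 EECs of rat 2. Nts and Sct met in 14 EECs of rat 1 and 3 of rat 2. Gip and Gast (gastrin) met in 4 and 2 EECs, and Sst and Cartpt in 5 and 1. Gcg and Pyy met in 6 EECs of rat 1, which is every EEC with 10 or more Pyy UMIs. Tph1, at 10 or more UMIs, met Tac1 in 8 EECs of rat 1 and 3 of rat 2, and met Cartpt in none of rat 1 and 6 of rat 2. No EEC of either rat had 10 or more UMIs of both Tph1 and Gip, or of both Tph1 and Sst.

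Read at equal depth, after every barcode was thinned to 1000 UMIs, the shares of EECs with a UMI of a hormone fell for the weaker genes. Nts was found in 63.4% of the EECs of rat 1 (46.9 to 77.9) and in 53.7% after thinning, against 18.7% and 3.82% of the other epithelial barcodes. In rat 2 Nts was found in 28.6% of EECs (8.39 to 58.1) and 0.129% of the others. Gast was found in 34.1% (20.1 to 50.6) and 35.7% (12.8 to 64.9) of EECs, in 19.5% and 28.6% after thinning, and in 0.0732% and 0.708% of the others. The share of EECs with Gast was thus far above the share in cells that should lack it, at either depth. Nmu (neuromedin U) was found in 26.8% and 28.6% of EECs but in 35.2% and 21.3% of the other epithelial barcodes, so that its share in EECs is at background.

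Sct and Cck were also found at 10 or more UMIs outside the EECs. There, 11 barcodes of rat 1 and 97 of rat 2 held at least 10 Sct UMIs, and 3 and 37 held at least 10 Cck UMIs. Tuft barcodes of rat 2 had Sct at 2172 CPM and Cck at 692 CPM, against 10006 and 46626 CPM in its EECs. For Gip, Sst, Tph1, Tac1, Gast and Cartpt no barcode outside the EECs reached 10 UMIs. Nts reached 10 UMIs in 4 barcodes of rat 1 that the gate left out, with up to 1210 UMIs, and Gcg in 2, with up to 73 UMIs.

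The first test asked which genes outside the choice differed between EECs and the other epithelial barcodes. Counts were summed per rat and class, and the quasi-likelihood test of edgeR, adjusted over all 11453 tested genes by the Benjamini-Hochberg method, gave 329 with an adjusted p under 0.05, or 2.87% of those tested. Of these, 222 (1.94%) were higher in EECs and 107 (0.934%) were lower, each in the same direction in both rats. Since the classes come from the same animals, the rat was also taken as a block, and 1830 of the same 11453 genes then passed. Among them 678 were higher and 1152 lower, and the counts per list with the block stand beside these totals. The fit with the block leaves 1 residual degree of freedom, so its p-values lean on the spread shared by all genes. With every barcode thinned to 1000 UMIs 216 of 7569 tested genes passed and the split turned, with 73 higher and 143 lower. The median gene then moved by −0.56 on the log2 scale. With mitochondrial UMIs limited to 20% in both classes 99 genes passed, 89 of them higher, and with barcodes over 5000 UMIs alone 194 passed.

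Of 29 hormone genes beyond the chosen ones in the matrices, 15 had enough counts to be tested. Of these 7 rose and none fell, with a median log2 difference of 11.40 against −0.23 over all genes. A gene near 0 in the other epithelial barcodes could enter the test only through its EEC counts. Counts and medians of this and the following lists are therefore set in part by the filter on low counts. It left 14 of 36 ion channels and 16 of 40 receptors. Sst rose by 14.10 ± 1.56 on the log2 scale (SE, adjusted p = 0.00776), from 0.729 and 1.16 CPM in the other epithelial barcodes. Gast was at 976 and 8181 CPM against 0.120 and 0.579 CPM, a log2 difference of 13.21 ± 1.80 (adjusted p = 0.0161). Cartpt, with 1 UMI in the others of rat 1 and 15 in those of rat 2, also passed (adjusted p = 0.0400), but not with the 20% mitochondrial limit or with barcodes over 5000 UMIs alone. All 3 were more abundant in EECs of each rat by over 3 orders of magnitude.

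Lower-level hormone genes passed as well. Ucn3 (urocortin 3) had 31 UMIs in 8 EECs of rat 1 and 10 UMIs in 3 EECs of rat 2, against 1 UMI and none in the others (adjusted p = 0.00280). Iapp (amylin) had 10 and 9 UMIs against none and 1 (adjusted p = 0.00675). Nucb2, the precursor of nesfatin, was at 129 and 227 CPM against 2.83 and 6.84 CPM, a log2 difference of 4.78 ± 0.69 (adjusted p = 0.0185), a call lost with the 20% mitochondrial limit. Vgf, whose product is cut into several neuroendocrine peptides, had 16 UMIs in rat 1 and 1 UMI in rat 2 against 4 and 1 (adjusted p = 0.0176).

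The hormones that differed most between the rats missed the threshold without the block. Nts had a log2 difference of 12.01 ± 3.86 (adjusted p = 0.179), and 6.58e-08 with the block, in a range of 2.49e-17 to 0.326 over 13 alternatives. Gcg was at 12.03 ± 3.13 (adjusted p = 0.104, with the block 8.91e-14, range 2.56e-21 to 0.188). Pyy, with no UMI in the EECs of rat 2, had an adjusted p of 0.105, and 1.97e-17 with the block (range 1.67e-25 to 0.119). Ghrl, likewise without UMIs in rat 2, had an adjusted p of 0.0611, and 4.05e-36 with the block (range 4.05e-36 to 0.0609). Nmu was at 37.8 and 40.8 CPM against 71.9 and 43.2 CPM (adjusted p = 0.488).

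Of 13 tested granule proteins 6 rose and none fell (8 rose with the block), with a median log2 difference of 3.67. Scg2, a secretogranin, was at 1114 and 624 CPM in EECs against 0.239 and 0.126 CPM, a log2 difference of 11.88 ± 0.96 (adjusted p = 0.00280). Scg5, a chaperone of prohormone convertase 2, rose by 11.63 ± 0.84 (adjusted p = 0.00280), and Ptprn, a granule membrane protein, by 11.34 ± 1.00 (adjusted p = 0.00373). Scg3, a secretogranin that binds Chga, had 52 and 75 UMIs against 5 and none (adjusted p = 0.00373). Ptprn was found in 34 of 41 and 13 of 14 EECs and Scg2 in 33 and 9, while Scg3 was found in 20 and 11 and Scg5 in 31 and 7. The broadly used vesicle gene Rab2a was at 220 and 187 CPM against 236 and 146 CPM (adjusted p = 0.893).

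Of 8 tested genes of peptide processing 1 rose and none fell (2 rose and 1 fell with the block), with a median log2 difference of 0.06. Pam, the enzyme that amidates peptide ends, was at 422 and 840 CPM against 14.4 and 33.8 CPM, a log2 difference of 4.28 ± 0.72 (adjusted p = 0.0282), and missed the threshold with the 20% mitochondrial limit or with barcodes over 5000 UMIs alone. Pcsk1, the prohormone convertase 1 gene, was at 37.8 and 75.8 CPM against 0.0871 and 1.13 CPM (6.12 ± 1.28, adjusted p = 0.0564). With the block its adjusted p was 6.78e-13, in a range of 6.78e-13 to 0.274 over 12 alternatives. Pcsk1 was found in 6 and 4 EECs only.

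Of 13 tested genes of amine synthesis and transport, 1 rose (5 rose and 4 fell with the block). This was Slc18a1, the vesicular amine transporter, at 160.5 and 402 CPM against 0.109 and 0.0755 CPM (adjusted p = 0.00280), in 12 of 41 and 10 of 14 EECs. Gch1, which makes a cofactor of Tph1, was at 280 and 292 CPM against 56.0 and 85.9 CPM (1.65 ± 0.52, adjusted p = 0.171), with 3.82e-05 under the block and a range of 3.82e-05 to 0.557.

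The exocytosis genes rose in 8 of 24 tested (13 with the block), and none fell. Snap25, the plasma membrane SNARE of neurons, had 13 and 36 UMIs in EECs against 1 and 1 in the others, a ratio of 3758 (exact counting interval 565 to 159723) in rat 1 and 8344 (1405 to 338615) in rat 2 (adjusted p = 0.00428). Syt5, a calcium sensor, was at 113 and 111 CPM against 0.152 and 0.453 CPM (8.23 ± 0.83, adjusted p = 0.00563). Cplx2, a complexin, was at 72.4 and 64.1 CPM against 0.697 and 0.151 CPM (6.99 ± 0.87, adjusted p = 0.0125). Stxbp5l had 10 and 9 UMIs against 14 and 1 (adjusted p = 0.0103). Rab3b was at 198 and 245 CPM against 1.13 and 12.6 CPM and missed the threshold (4.59 ± 1.12, adjusted p = 0.0862), with 1.73e-35 under the block and a range of 1.73e-35 to 0.345.

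Channels and receptors that couple sensing to release had few UMIs. Those named here as higher in EECs had a median of 0 over the EECs of rat 1. Of 14 tested ion channel genes 8 rose and none fell (with the block 10 rose and 1 fell). With every barcode thinned to 1000 UMIs only 3 of these genes could be tested and none passed. In that setting 1 of 9 tested exocytosis genes and 1 of 10 tested lineage factors rose, against 73 of 7569 genes in all. Asic5, an acid-sensing channel family member, had 20 UMIs in 7 EECs of rat 1 and 25 UMIs in 1 EEC of rat 2, against 2 and none (adjusted p = 0.00280). Cacna2d1, a calcium channel subunit, had 12 and 23 UMIs, each in 11 EECs, against 2 and none (adjusted p = 0.00398). The sodium channel Scn3a had 6 and 19 UMIs against 2 and 2 (adjusted p = 0.00776), and the T-type calcium channel Cacna1h had 3 and 11 against none and 2 (adjusted p = 0.0265). Asic5 and Cacna2d1 thus stood at similar sums but were gathered in few EECs or spread over many.

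Of 16 tested nutrient and regulatory receptors 2 rose and none fell (4 rose and 2 fell with the block). Glp1r, the receptor of glucagon-like peptide 1, had 7 UMIs in 6 EECs and 26 UMIs in 6 EECs, against 2 and 9 in the others (adjusted p = 0.0234), and missed the threshold with the 20% mitochondrial limit. Gipr, the Gip receptor, had 7 UMIs in 6 EECs of rat 1 and 3 UMIs in 1 EEC of rat 2, against 17 and 6 (6.55 ± 0.96, adjusted p = 0.0198). The fatty acid receptor Ffar4 was at 59.8 and 46.7 CPM against 21.3 and 17.6 CPM (1.16 ± 0.52, adjusted p = 0.344). Ramp1, part of the receptor for calcitonin gene-related peptide, was at 230 and 519 CPM against 75.8 and 112 CPM (1.57 ± 0.56, adjusted p = 0.229, with the block 0.000234, range 0.000234 to 0.680).

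Transcription factors of the EEC lineage rose in 12 of 30 tested (18 with the block, where 1 fell), and none fell. Fev had 28 UMIs in 17 EECs of rat 1 and 21 UMIs in 9 EECs of rat 2, against 1 UMI in the others of each rat, a ratio of 8095 (1338 to 331009) and 4867 (783 to 201292) (adjusted p = 0.00280). Lmx1a, a factor of enterochromaffin cells, had 16 and 43 UMIs against 2 and 1 (adjusted p = 0.00388), and Etv1 had 42 and 18 against 5 and 1 (adjusted p = 0.00280). Hes6 was at 151 and 81.6 CPM against 176 and 56.5 CPM (adjusted p = 0.911). Neurog3, the early and short-lived factor of EEC progenitors, had no UMI in any EEC.

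**Figure D2:**
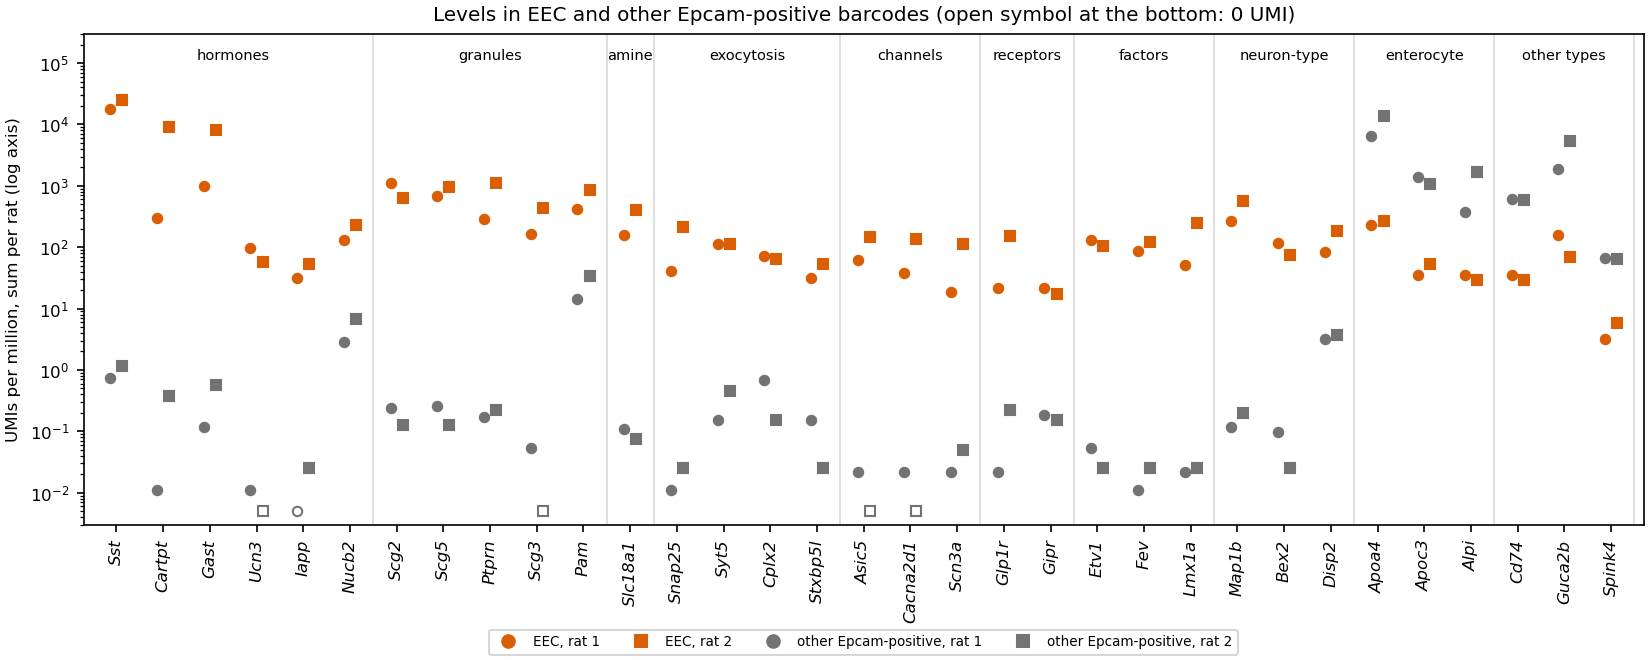
CPM (log axis) of named genes in the EEC sums (orange) and in the other Epcam-positive sums (grey), with circles for rat 1, squares for rat 2 and open symbols at the bottom for 0 UMI. Hormone, granule, exocytosis, channel, receptor and lineage factor genes lie higher in EECs of both rats, and the enterocyte genes, Cd74, Guca2b and Spink4 lie lower.

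Neuron-type genes of the cytoskeleton and RNA binding rose in 6 of 13 tested and fell in none (9 rose with the block). Map1b, a microtubule-associated protein, was at 268 and 571 CPM against 0.120 and 0.201 CPM (10.97 ± 0.82, adjusted p = 0.00280), and was found in 29 and 13 EECs. Bex2 had 37 and 13 UMIs against 9 and 1 (adjusted p = 0.00334). Disp2 was at 85.0 and 181 CPM against 3.19 and 3.75 CPM (4.84 ± 0.58, adjusted p = 0.0100), a call lost with the 20% mitochondrial limit. Tuba1a was at 192 and 210 CPM against 32.8 and 90.4 CPM (1.32 ± 0.63, adjusted p = 0.381, with the block 0.000282, range 0.000282 to 0.987). By the rule of largest differences outside the lists, Cxxc4 had 13 and 9 UMIs against none, at least 1253-fold and 695-fold higher when the others are set at 3 UMIs per rat (adjusted p = 0.00509). Col16a1, a collagen, had 6 and 60 UMIs against 1 and 1 (adjusted p = 0.0137), and Fxyd6, a regulator of the sodium pump, 74 and 28 against 4 and none (adjusted p = 0.00280).

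Enterocyte markers were 10 of the 107 genes that fell. Of the 20 enterocyte markers, all tested, these 10 fell and none rose, with a median log2 difference of −3.73, and all 20 fell with the block. The lipid carrier genes Apoa4 and Apoc3 were at 230 and 268 CPM, and 34.6 and 52.5 CPM, in EECs, against 6367 and 13533 CPM, and 1415 and 1089 CPM, in the others. Apoa4 fell by 5.70 on the log2 scale (SE 1.08, adjusted p = 0.0437) and Apoc3 by 5.21 (SE 0.69, adjusted p = 0.0152). Of 16 tested genes of glucose metabolism 1 fell and none rose, and with the block 8 fell and 2 rose. The 1 was Slc2a2, the basolateral glucose transporter, which had 6 UMIs and none, at 18.9 CPM and 0 against 275 and 281 CPM (adjusted p = 0.0437). The calls of Apoa4, Slc2a2 and Alpi, an alkaline phosphatase (adjusted p = 0.0411), were lost under the 20% mitochondrial limit and also with barcodes over 5000 UMIs alone, and that of Apoc3 under the former.

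Markers of the other types behaved differently among themselves. Of 10 tested goblet markers Fxyd3, an ion transport regulator, rose to 1004 and 1260 CPM against 86.7 and 49.8 CPM (3.72 ± 0.61, adjusted p = 0.0276), and Spink4 had 1 UMI in each rat, at 3.15 and 5.83 CPM against 67.3 and 63.1 CPM (adjusted p = 0.0267). Both calls were lost with the 20% mitochondrial limit. The secreted goblet proteins Tff3 and Agr2 were at 3717 and 11674 CPM, and 2298 and 1469 CPM, in EECs, against 2489 and 3769 CPM, and 1438 and 929 CPM (adjusted p = 0.701 and 0.844). The CHE marker Guca2b fell by 5.28 (SE 1.06, adjusted p = 0.0497), a call lost under both of these settings. CHEs are the CFTR high-expressing cells of the proximal intestine. That was 1 of 5 tested CHE markers, and 2 fell with the block. Of 14 tested immune markers 1 fell and none rose, with a median log2 difference of −0.47. This was Cd74, the invariant chain of antigen presentation, which fell by 4.55 (SE 0.63, adjusted p = 0.0164), while Ccl5, a chemokine of T cells, was at 192 and 1131 CPM against 344 and 943 CPM (adjusted p = 0.855). Of the 194 Ccl5 UMIs in EECs of rat 2, 190 lay in 1 EEC. Outside the lists, RT1-Ba, an antigen-presenting chain, had no UMI in EECs against 119 and 113 CPM, at least 12.6-fold and 6.45-fold lower (adjusted p = 0.0161).

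Haemoglobin genes, which mark free or captured red cell RNA, were lower too. Hba-a1 was at 75.5 and 35.0 CPM in EECs against 2600 and 7614 CPM (adjusted p = 0.0310), and Hba-a2 followed it (adjusted p = 0.0235). The alpha-globin copies are near identical, so the split of reads between them is uncertain. Both calls were lost with the 20% mitochondrial limit or with barcodes over 5000 UMIs alone. None of the 9 Paneth, 10 tuft, 8 stem or 10 cell cycle markers tested passed, where 5 tuft markers and 1 cell cycle marker fell, and 4 Paneth markers fell and 1 rose, with the block. Olfm4, a stem cell gene, was at 425 CPM in rat 1 and 0 in rat 2 (adjusted p = 0.827), and Mki67, a gene of dividing cells, at 107 CPM and 0 (adjusted p = 0.851), each from a few EECs (7 and 4). A single EEC held 108 of the 135 Olfm4 UMIs.

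Notch signalling was read by the study's lists of genes on and off in this pathway. Of 5 tested Notch-on genes none passed, and Hes1, the main target, was at 15.7 and 23.3 CPM in EECs against 48.4 and 25.1 CPM (adjusted p = 0.381). Of 5 Notch-off genes 1 rose: Jag2, a ligand, at 25.2 and 117 CPM against 1.73 and 2.54 CPM (4.55 ± 0.79, adjusted p = 0.0322), a call lost with the 20% mitochondrial limit. Dll1, another ligand, had 2 UMIs in each rat (adjusted p = 0.889). With the block, 1 gene of each list fell.

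The promoters of the genes that rose were searched for the full cyclic AMP response element, TGACGTCA, a sequence that reads the same on both strands and is known from Sst and other hormone genes. RefSeq promoters of 250 bases before to 50 after the annotated start, on assembly GRCr8, were available for 146 of the 222 genes, matched by symbol. The element was found in 8 of them (5.48%), in 3.29% of the promoters of all genes tested, in 1.91% of all promoters and in 3 of 70 (4.29%) of the genes that fell. Of the 10 genes that chose the barcodes, 7 had a promoter and none of these held the element. Of 12 hormone and granule genes that rose and had a promoter, 4 held it, and these are shown in windows of 30 bases because they include the hormone gene with the largest sum among those that passed. Capitals mark the element, and each sequence is written 5′ to 3′ on the gene's own strand. Presence of the letters is a description and was not tested against the levels.
Sst: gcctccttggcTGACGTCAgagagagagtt
Cartpt: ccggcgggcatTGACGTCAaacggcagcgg
Vgf: tgaatgaacatTGACGTCAatggggcgggg
Scg2: ggctgagccggTGACGTCAgcgaggaatgc
The Sst window lies at chr11:90461537-90461566 on the plus strand, with the element just after the annotated start. The Cartpt window lies at chr2:32991359-32991388, the Vgf window at chr12:25277092-25277121 and the Scg2 window at chr9:88256971-88257000, all on the minus strand and before the start. The other 4 genes were Gnao1, Kif5c, Peg3 and Tspyl4. The counts themselves were made on another build, Rnor6, and no coordinate was taken across.

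A second test set EECs against the other secretory types in the same animals: 259 tuft barcodes, 85 CHE barcodes and 800 goblet barcodes, each chosen by its own markers. The CHE barcodes numbered 8 in rat 1 and 77 in rat 2, and those of rat 1 held 92142 UMIs in sum. The mean of the 3 types was taken over their log levels, so a type near 0 pulls it down. Against this mean, 328 of 8943 tested genes passed (3.67%), 284 higher in EECs (3.18%) and 44 lower (0.492%). All but 2 had the same direction in both rats. With the rat as a block 719 passed, 479 of them higher. In each barcode thinned to 1000 UMIs 50 passed, and with another scaling (DESeq2 size factors) the median gene moved by 0.154 on the log2 scale and 367 passed.

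Genes of peptide storage and release rose in EECs against these types too. Of 10 tested hormones 8 rose, of 12 granule proteins 6 and of 22 exocytosis genes 9. Of 12 ion channels 8 rose, of 11 receptors 4 and of 26 lineage factors 13, and none of these lists had a gene that fell. The filter on low counts left 10 of 29 hormones here, so these counts carry the same limit as in the first test. Of 14 tested immune markers none passed in this comparison, but their median log2 difference was 1.76, 8 had an unadjusted p under 0.05, and 7 rose and 1 fell with the block. In rat 2 a single EEC held 190 of the 194 Ccl5 UMIs, and 158 of the 161 Gzma UMIs lay in 1 EEC. Scg2 had 354 and 107 UMIs in EECs, and in the 3 other types together 1 UMI, in goblet barcodes of rat 2 (adjusted p = 0.000414). Runx1t1, a transcriptional corepressor, had 27 and 17 UMIs in EECs and none in any tuft, CHE or goblet barcode (adjusted p = 0.00161), as did Fev (adjusted p = 0.00104) and Lmx1a (adjusted p = 0.00227). Cltrn (collectrin) had 99 and 45 UMIs and likewise none elsewhere (adjusted p = 0.000414). Nts, which missed the threshold in the first test, passed here (12.42 ± 2.57, adjusted p = 0.0280), with goblet barcodes of rat 1 at 182 CPM, but not against any of the 3 types alone.

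Some genes that rose against the mean were shared with at least 1 of the other types, at a higher level there (Ramp1, Gprc5c) or a lower one (Pcsk1, Pam, Ddc). Ramp1 rose against the mean of log levels (3.80 ± 0.66, adjusted p = 0.0132), but stood at 785 and 1363 CPM in goblet barcodes, above the 230 and 519 CPM of EECs. That mean was pulled down by tuft barcodes, at 20.8 and 5.17 CPM, and CHE barcodes, at 0 and 0.995 CPM. Gprc5c, an orphan receptor, rose against the mean (3.39 ± 0.72, adjusted p = 0.0325), but was at 67.1 and 130 CPM in tuft barcodes against 44.1 and 70.0 CPM in EECs. Pcsk1 rose (7.26 ± 0.86, adjusted p = 0.00299) with no UMI in tuft barcodes and 1 in goblet barcodes, yet CHE barcodes held 10.9 and 40.8 CPM against 37.8 and 75.8 CPM in EECs. The CHE value of rat 1 came from 1 UMI. Pam was at 130 and 452 CPM in CHE and 38.5 and 197 CPM in goblet barcodes, against 422 and 840 CPM in EECs. It rose against the mean by 3.18 ± 0.68 (adjusted p = 0.0325). Ddc, the second enzyme of serotonin synthesis, was at 167 and 274 CPM in EECs, 46.3 and 18.7 CPM in tuft and 52.4 and 8.82 CPM in goblet barcodes. It rose by 3.97 ± 0.62 against the mean (adjusted p = 0.00748). Against CHE barcodes alone neither Pcsk1 nor Pam passed.

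Of the 44 genes lower in EECs than in the other secretory types, 1 was among the 5 tested CHE markers and 2 among the 20 enterocyte markers. Guca2b (uroguanylin) was at 60363 and 138881 CPM in CHE barcodes and fell by 5.13 against the mean (SE 1.10, adjusted p = 0.0327). Ccnyl1 had no UMI in EECs, against 553 and 645 CPM in CHE barcodes, 9.58 and 16.8 CPM in tuft and 7.13 and 8.82 CPM in goblet barcodes (adjusted p = 0.0131). Ccl6, a chemokine, and Cwh43 also had no UMI in EECs (adjusted p = 0.0269 and 0.0329), and with barcodes over 5000 UMIs alone neither of them nor Guca2b passed. Itgb4, an integrin of the basal attachment, had 2 UMIs and none in EECs, against 70.4 to 218 CPM in the sums of the other types (adjusted p = 0.0211). Absence of these genes from EECs is limited by depth: a count of 0 allows up to 9.44 and 17.5 CPM (3 UMIs per rat).

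**Figure D3:**
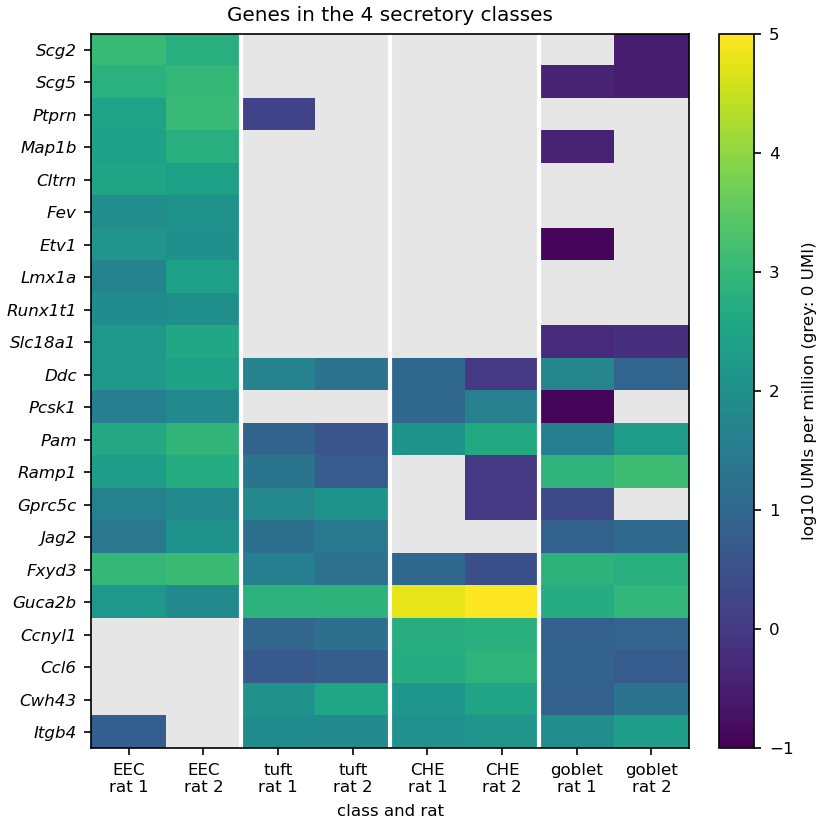
log10 CPM of 22 genes in the EEC, tuft, CHE and goblet sums of each rat, with grey for 0 UMI. The granule genes and lineage factors at the top are at or near 0 outside EECs, Ddc, Pam, Ramp1, Gprc5c and Fxyd3 are shared with at least 1 other type, and Ccnyl1, Ccl6 and Cwh43 have no UMI in EECs.

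EECs fell into different forms among themselves. Tph1 reached 10 UMIs in 9 EECs of each rat, and these had a median of 10.4% (rat 1) and 9.34% (rat 2) of all UMIs in Chga and Chgb. In Nts-led EECs that share was 0.340%, in Sst-led EECs 0.499% and 0.995%, and in Gip-led EECs 0.514% and 1.66%. The share of peptide hormones went the other way, with a median of 0.921% and 3.72% in the Tph1 group, 45.9% in Nts-led, 18.3% and 32.5% in Sst-led, and 31.9% and 44.0% in Gip-led EECs. Shares of 1 total are not independent, and the groups are chosen by the same counts, so these values are a description.

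**Figure D4:**
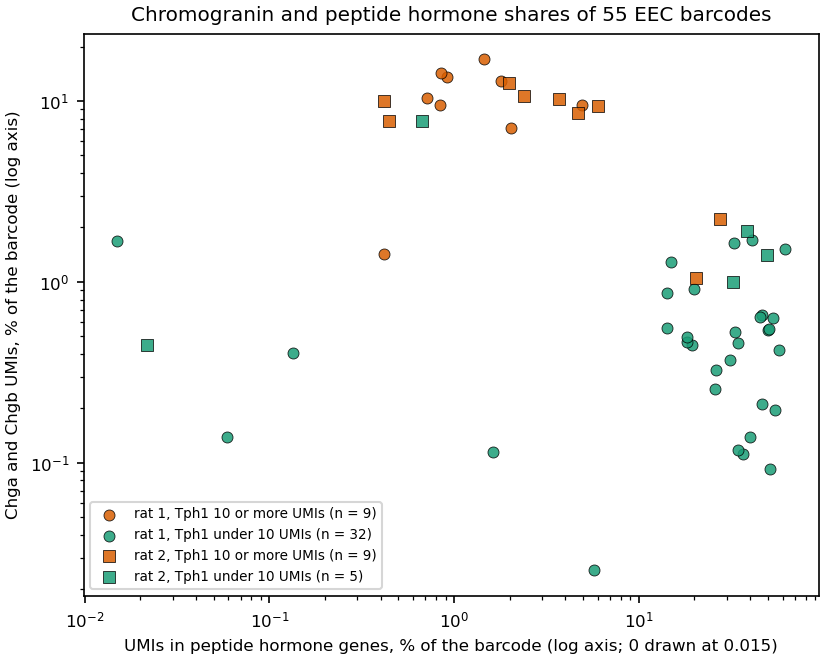
Share of UMIs in Chga and Chgb against the share in peptide hormone genes (both log axes, percent of the barcode) for the 55 EEC barcodes, with orange for 10 or more Tph1 UMIs, green for fewer, circles for rat 1 and squares for rat 2. Most orange points lie near 10% chromogranin and under 10% peptide, with 3 exceptions: 2 squares above 20% peptide, led by Cck, and 1 circle with 1.42% chromogranin.

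The split by Tph1 was tested with the 12 EECs of rat 1 and 10 of rat 2 that held a Tph1 UMI against the 29 and 4 that held none. With edgeR's quasi-likelihood test none of 1275 genes passed (0% called), 79 had an unadjusted p under 0.05, and none passed with the block. DESeq2 called 20 genes, 13 of them higher with Tph1, and edgeR with no filter on low counts called 55. Without the 1 EEC of each rat that had at least 1% immune transcripts, edgeR called 4 genes at an adjusted p of 0.0444: Slc18a1, Akap12 and Ttr, higher with Tph1, and Sst, lower. The sums without Tph1 held 222384 UMIs in rat 1 and 61873 in rat 2, the latter from 4 barcodes.

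The genes of the following subsets were singled out after their values were seen, and are given with no test. Slc18a1 was found in 18 of 18 EECs with 10 or more Tph1 UMIs and in 4 of the 37 others. Lmx1a was found in 13 of 18 and 1 of 37, Akap12, a kinase anchor, in 13 and 1, and Ttr (transthyretin) in 10 and 3. Ddc was found in 15 and 8, and Snap25 in 15 and 3. Reg4, a secreted lectin, was at 5667 and 9515 CPM in the Tph1 group and at 364 and 61.4 CPM in the other EECs. The amine loading gene and the release SNARE thus lay mostly in the same EECs as Tph1 in both rats.

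The reverse held for the factors of peptide EECs. Isl1 was found in none of the 18 EECs with 10 or more Tph1 UMIs and in 22 of the 37 others, and Pax6 in none and 12. Serpina1, a protease inhibitor, was found in 2 and 13. The median depth of the Tph1 group was 4671 UMIs in rat 1 and 10647 in rat 2, and its sums held 70232 and 106353 UMIs, so the absence of Isl1 allows up to 3 UMIs in each.

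Sst-led EECs (7 in rat 1 and 1 in rat 2) held most of the Hhex transcripts, a transcription factor of somatostatin cells in the pancreas. Hhex was found in 6 of these 8 and in 1 of the 47 other EECs. Isl1 was found in 8 of 8 and 14 of 47, Asic5 in 6 and 2, and Iapp in 5 and 2. Pdx1, a factor of the duodenum and pancreas, was found in 5 of 8 and 5 of 47. Cartpt was found in 5 of the 7 Sst-led EECs of rat 1 and in 1 of the 34 others, but in 7 of the 13 EECs of rat 2 that were not led by Sst.

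Gip-led EECs (4 and 2) held more of a fatty acid carrier and receptor than the other EECs. Fabp5 was at 16288 and 12482 CPM in them and at 625 and 632 CPM in the other EECs. Ffar4 was found in 6 of 6 and 12 of 49, Pax6 in 5 and 7, and Fxyd6 in 6 and 19. The level of Ffar4 was 255 and 130 CPM in Gip-led EECs, but goblet barcodes held 91.7 and 192 CPM, so it was not particular to this subset. Serpina1 was at 894 and 960 CPM against 83.8 and 7.52 CPM. Gast was present in all 6. The order was the same in both rats for Fabp5, Serpina1 and Ffar4, from 4 and 2 barcodes.

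Nts-led EECs occurred in rat 1 only. They held Sct in 16 of 16, at 27537 CPM against 3513 CPM in the other EECs of rat 1, and Etv1 in 12 of 16 against 5 of 25. Of their 3694 Sct UMIs, 1662 lay in 1 EEC and 1034 in another, and Sct is among the genes that chose the barcodes. Pyy was found in 4 and Gcg in 5 of the 16, and all 4 EECs with Ghrl were Nts-led. Tph1 reached at most 5 UMIs in them. The 3 EECs of rat 2 with 10 or more Nts UMIs had between 44 and 69, beside Sct and Cck.

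**Figure D5:**
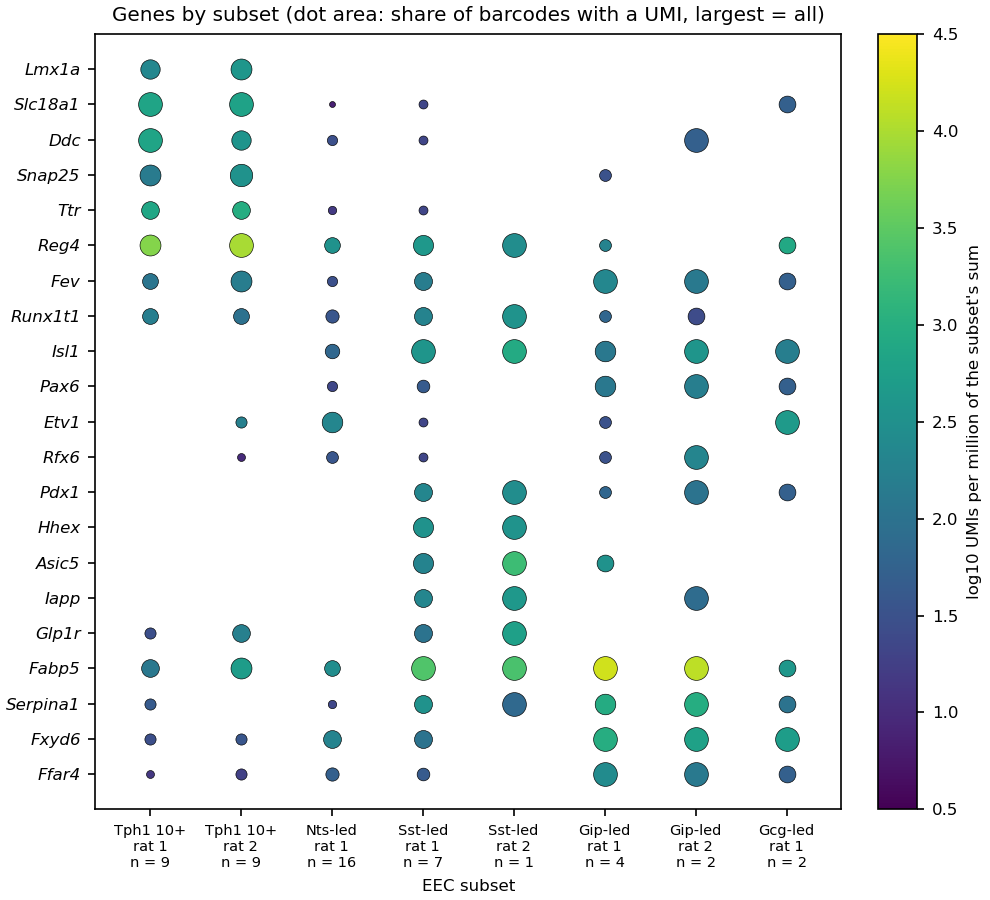
Genes by EEC subset and rat, with dot area for the share of the subset's barcodes that hold a UMI (the largest dot is all of them) and colour for log10 CPM of the subset's sum. Lmx1a and Slc18a1 lie mainly in the Tph1 subset of both rats and Isl1 and Pax6 outside it, Hhex lies in the Sst-led subset, and Fabp5 and Serpina1 are highest in the Gip-led subset.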

How the data were processed

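The jejunal epithelium of 2 male rats was captured with 10x 3′ v3.1 chemistry, 1 library per rat. The authors aligned the reads to Rnor6 and deposited matrices of raw UMI counts per gene and barcode, per the labels, the methods and the file headers; library totals were 99986348 and 66469907 UMIs, and no column was left unused. The members and gene lists were chosen with earlier results of these data known. Counts were summed per rat and class with Python 3.11.15 and tested in R 4.3.3 with edgeR 4.0.16 (quasi-likelihood, Benjamini-Hochberg adjustment), with DESeq2 1.42.0 as an alternative. The genes that chose the barcodes and Epcam were left out of the tests. Tuft barcodes had a UMI of at least 3 of Dclk1, Trpm5, Gfi1b, Pou2f3, Avil and Sh2d6, CHE barcodes at least 3 UMIs of Best4 and Otop2 together, and goblet barcodes at least 2% of UMIs in Muc2, Clca1, Fcgbp, Zg16, Agr2, Tff3 and Spink4; 5 barcodes passing 2 of these gates were left out. No doublet caller was run, and barcodes passing a second gate were left out as an alternative.

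From each list the text names up to 4 genes with the largest log2 difference past the threshold (same direction in both rats, at least 10 UMIs) and up to 2 that did not pass with the most EEC UMIs, besides all hormone genes with at least 10 EEC UMIs and the 10 largest differences per direction outside the lists with at least 20 UMIs, 3 in each rat. Neurog3 and the genes of the EEC subsets were named after their values were seen, and the regional genes after the hormones were seen to differ. Tested on simulated counts in which 200 of 11464 genes moved by a log2 value of 3, the first test recovered 50 of 100 raised and 24 of 100 lowered genes, with 14.0% false calls. The second recovered 78 and 17 on 8967 genes (3.06% false), and the third 78 and 69 on 1285 genes (8.70% false). Classes of 1 rat come from the same animal, so the rat pairs the sums, and the deviations of paired sums correlated at 0.297 in the first test, 0.132 to 0.674 in the second and 0.259 in the third. The replicates are separate animals. Some genes that the naming rule covers are not reported here.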

Additional observations from a re-analysis of the deposited data

How the results depend on the processing

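The number of calls changed with the processing. In the first test 329 genes passed, against 859 with DESeq2, 1176 with no filter on low counts, 1830 with the replicate block, 194 with over 5000 UMIs, 216 thinned to 1000 UMIs, 99 with at most 20% mitochondrial UMIs and 642 with all 5 classes in 1 fit. In the second 328 passed, against 590 with DESeq2, 878 with no filter, 719 with the replicate block, 50 thinned, and 213, 199 and 175 against tuft, CHE and goblet barcodes alone. In the third none passed, against 20 with DESeq2, 55 with no filter and 4 without the immune-marker barcodes, an alternative chosen after seeing the data. Leaving out a rat gave 14 to 41 EECs, a log2 difference of −1.17 to 12.94 for Pyy, −3.22 to 10.79 for Ghrl and −7.59 to 1.16 for Olfm4. The direction also turned for Olfm4 thinned (−0.25), Ramp1 against goblet alone (−1.82), Gprc5c against tuft alone (−0.82) and Hk2 against goblet alone (−0.42). The cause was not tested. Of the 329 genes of the first test, 327 also passed with the replicate block. Over the named genes of that test and the alternatives, 861 values kept their direction and side of the threshold, 78 gained it, 40 lost it, 60 moved by more than their SE when a rat was left out and 4 turned. With 55 EECs, genes at a few UMIs are limited by depth.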
